A study of Mus musculus with 6 samples.

Results

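The genes of cholesterol synthesis described here are Srebf2, which encodes the transcription factor SREBP2, and 7 enzyme genes of the pathway that SREBP2 is known to activate, Hmgcs1, Idi1, Fdft1, Sqle, Lss, Cyp51 and Dhcr7. They were found by their symbols and are 8 of the 55573 genes listed for inguinal white adipose tissue, which lies under the skin of the groin. The mutant mice (n = 3) were homozygous for a global knock-in of THRA K283Q/K288R, a double mutation in the thyroid hormone receptor alpha gene Thra made to reduce attachment of SUMO to the receptor, so every cell type of these mice carried it. The Wt mice (n = 3) carried the normal Thra gene. All 6 mice were untreated C57BL/6NTac males, 3 months of age, on regular chow, and each gave 1 library of total RNA. The question was whether the enzyme genes moved with Srebf2 and with Srebf1, the related factor of fatty acid synthesis.

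SREBP2 is made as a precursor in the membrane of the endoplasmic reticulum, where it is bound to its escort SCAP. When sterols are low, SCAP carries the precursor to the Golgi, 2 proteases encoded by Mbtps1 and Mbtps2 release its active part, and that part enters the nucleus and switches on the genes of sterol synthesis and of lipoprotein uptake. When sterols are plentiful, the INSIG proteins hold SCAP and the precursor back. Adipocytes keep a large store of unesterified cholesterol, much of it taken up from lipoproteins. RNA-seq measures the transcripts of these genes and not the cleaved SREBP proteins.

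None of the 8 genes passed the FDR of 0.05, where 8.11% of all genes tested did. Their values did not all lie the same way. Srebf2 was at 0.660 of the Wt mean in the mutant mice, whereas Fdft1, Sqle and Cyp51 were at 1.34, 1.26 and 1.27 times it. For each of these 4 genes the genotypes did not overlap. Over all genes tested, 14.9% had every mutant mouse above every Wt mouse, and 15.7% had every mutant mouse below. The count of Fdft1 is uncertain, because it shares exonic bases with a far more abundant gene on the opposite strand. Hmgcs1, Idi1, Lss and Dhcr7 overlapped between the genotypes. Around them, Insig1, whose product holds SCAP back, passed the FDR and rose to 1.99 times the Wt mean. Scap and Srebf1 fell, to 0.674 and 0.573 of it.

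All 8 genes passed the filter on low reads. Across the 16868 genes tested, limma with a mean-variance trend called 1368 (8.11%), of which 928 (5.50%) were higher and 440 (2.61%) lower in the mutant mice, and the median log2 fold change of all genes was -0.049. Of the 928 higher calls, 576 were genes whose partner on the opposite strand was at least 10 times as abundant, a class with 2 lower calls, whereas the 14654 genes with no partner or a less abundant one held 302 higher and 417 lower calls. The share of higher calls depended on the scaling, with 1019 higher and 265 lower when values were scaled by library size only, and 879 higher and 127 lower after a correction for GC content. Of the 8 genes, limma called 0, with 4 at an unadjusted p under 0.05, where 4075 of all genes (24.2%) had such a p. The quasi-likelihood test of edgeR called 0 of them as well (6.92% of all genes), and the Wald test of DESeq2, which called 12.6% of all genes, called 3, Srebf2 lower and Fdft1 and Cyp51 higher. All 3 mutant mice lay above all 3 Wt mice for 3 of the 8 genes, which held for 14.9% of all genes tested, and below them for 1 gene, which held for 15.7%. The share lying above differed between the classes of partner. It held for 762 of the 1192 genes with a partner at least 10 times as abundant, Fdft1 among them. Of the 14654 genes with no partner or a less abundant one, 1575 lay above and 2470 below.

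Depth and cell makeup were compared between the libraries first. The libraries held 19607423 to 24228381 reads on genes. The 6 adipocyte markers, Adipoq among them, summed to 11916 to 17038 in Wt and 10296 to 16291 in mutant mice, in normalized CPM (reads scaled to the size of the library, then by a factor for each mouse), and none of the 6 had genotypes that did not overlap. Adipoq itself was at 2219, 1581 and 1557 in Wt mice 1 to 3 and 2141, 1619 and 1332 in mutant mice 1 to 3. Other cell types moved with the groups or with single mice. The 8 mesothelial markers summed to 4.81 to 32.8 in Wt and 37.7 to 77.2 in mutant mice, with 6 of 8 called higher and with Upk3b, Upk1b, Wt1 and Bnc1 at 0 in at least 1 mouse. The 6 B cell markers summed to 3.98 in mutant mouse 1 and to 445 to 977 in the other 5 mice, and the 6 epithelial markers to 75.8 in Wt mouse 1 and to 3.79 to 23.1 in the other 5. The 6 skeletal muscle markers summed to 10389.8 to 22408 in Wt and 16556 to 25786 in mutant mice, with 1 of 6 called higher. The 4 brown fat markers summed to 50.9 to 78.6 in Wt and 35.4 to 56.4 in mutant mice, with 1 of 4 called lower, and the 4 T cell markers to 2.15 in mutant mouse 1 and to 57.6 to 211 in the other 5 mice. The part of these cell types in the results below was not tested, and in bulk tissue fewer cells of a type and less RNA per cell cannot be told apart. Thra itself was at 147, 128 and 117 in Wt mice 1 to 3 and 169.8, 139.9 and 137 in mutant mice 1 to 3 (limma, adjusted p = 0.404). The knock-in changes codons and leaves the gene in place, so this level does not check the genotype. Thra also shares 263 exonic bases with Nr1d1 on the opposite strand. Nr1d1 had 1.99 times the mean value of Thra, and its part in the values of Thra was not tested.

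Srebf2 lay lower in the mutant mice. Srebf2 (ENSMUSG00000022463, chr15:82147181-82205379, plus strand, GRCm38) had normalized CPM of 107, 146 and 145 in Wt mice 1, 2 and 3 and of 70.8, 90.2 and 101.4 in mutant mice 1, 2 and 3. Every mutant mouse was below every Wt mouse, although the gap between Wt mouse 1 and mutant mouse 3 was small beside the spread within each genotype. The means were 133 ± 22.5 in Wt and 87.4 ± 15.5 in mutant mice (SD, n = 3), a log2 fold change of -0.60 ± 0.18 (SE) with a 95% interval of -1.03 to -0.17 (limma, adjusted p = 0.101). In each genotype the mouse numbered 1 was the lowest. Without both mice numbered 1, which were left out after the data were seen because their libraries stood apart in epithelial and B cell transcripts, the log2 fold change was -0.60 and passed the FDR (limma, adjusted p = 0.0114), in a fit that called 13.5% of all genes. Srebf2 is rich in GC (57.1% of the bases of its annotated transcripts, added up), and GC-rich genes were lower in the mutant libraries as a class (median log2 fold change of -0.18 in the highest of 3 tertiles of GC content).

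**Figure D1:**
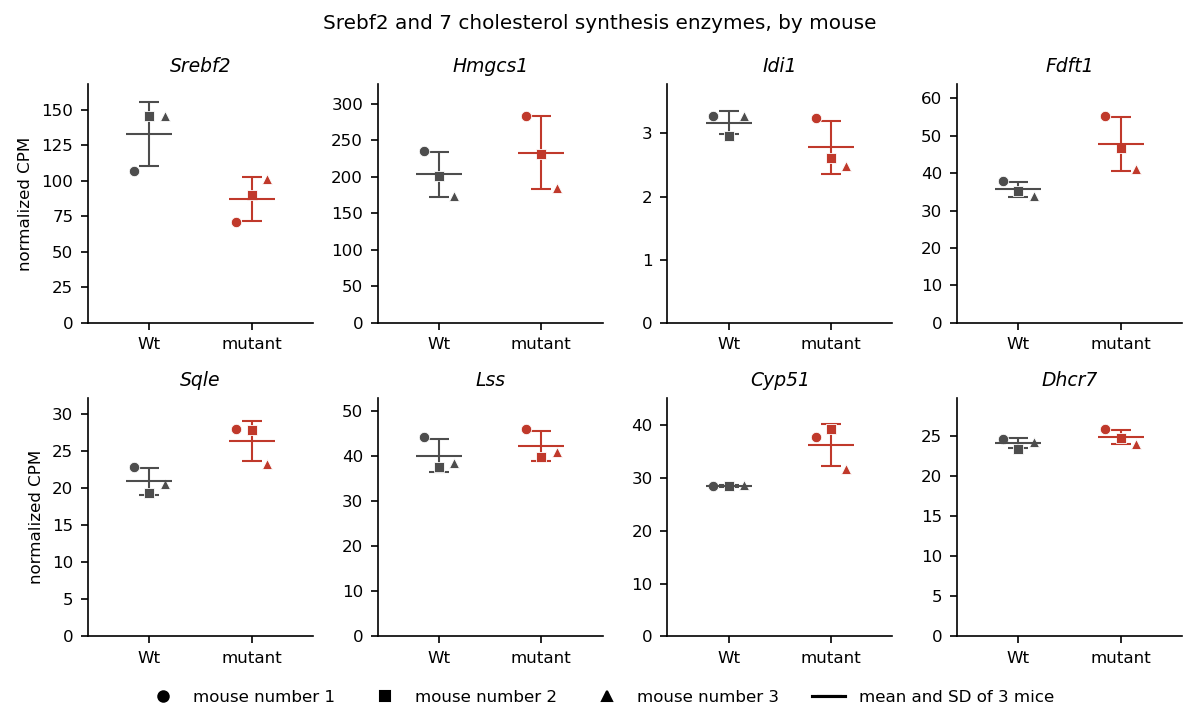
Normalized CPM of Srebf2 and the 7 enzyme genes in each mouse (circles, squares and triangles for the mice numbered 1, 2 and 3 in the labels, in grey for Wt and red for mutant, with bars for the mean and SD of 3 mice and each vertical axis starting at 0). The mutant points lie below all Wt points for Srebf2 and above them for Fdft1, Sqle and Cyp51, and the genotypes overlap in the other 4 panels.

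The early enzymes were followed next. Hmgcs1 (ENSMUSG00000093930, chr13:119690379-119708260, plus strand) encodes the cytosolic HMG-CoA synthase, an early enzyme of the pathway. It was at 235, 201 and 173 in Wt mice 1 to 3 and at 283.5, 231 and 184 in mutant mice 1 to 3. Mutant mouse 1 was the highest, but mutant mouse 3 lay below 2 of the Wt mice, and the interval of the log2 fold change ran from -0.26 to 0.63 around 0.19 (limma, adjusted p = 0.554). Idi1 (ENSMUSG00000058258, chr13:8885501-8892451, plus strand), the isomerase that interconverts isopentenyl and dimethylallyl diphosphate, had the fewest reads of the 8 genes, 53 to 78 per mouse. Its values were 3.27, 2.97 and 3.28 in Wt mice 1 to 3 and 3.25, 2.60 and 2.48 in mutant mice 1 to 3, and they overlapped. Of the 50-base windows of its exons, 25.3% also occur in other genes, so its count is uncertain.

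At the branch towards sterols, Fdft1 (ENSMUSG00000021273, chr14:63145150-63179578, minus strand) encodes squalene synthase, the first enzyme committed to sterols. Its values were 37.9, 35.3 and 33.9 in Wt mice 1 to 3 and 55.3, 46.6 and 41.0 in mutant mice 1 to 3. All mutant mice were above all Wt mice, with means of 35.7 ± 2.03 and 47.7 ± 7.23 (SD, n = 3) and a log2 fold change of 0.40 ± 0.12 (SE, limma, adjusted p = 0.107). This gene shares 774 exonic bases with Ctsb, the cathepsin B gene on the opposite strand, and Ctsb had a mean value 37.3 times as high as Fdft1. Whether the counting used strand is not given in the sources used here, so reads of Ctsb and Fdft1 cannot be told apart in that stretch. Ctsb was at 1769, 1387 and 1447 in Wt mice 1 to 3 and 1878, 1535 and 1316 in mutant mice 1 to 3, with the genotypes overlapping. Among all 1192 genes tested whose opposite-strand partner was at least 10 times as abundant, 576 were called higher and 2 lower, with a median log2 fold change of 0.85. The labels give both genotypes the same preparation. Whether their libraries nevertheless differed in how strand was kept or counted was not tested, nor was the part of Ctsb in the values of Fdft1, so the difference of Fdft1 is uncertain.

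Sqle (ENSMUSG00000022351, chr15:59315077-59331192, plus strand) encodes squalene epoxidase, a rate-limiting enzyme of the pathway. Its values were 22.8, 19.3 and 20.6 in Wt mice 1 to 3 and 27.9, 27.8 and 23.2 in mutant mice 1 to 3. The highest Wt mouse and the lowest mutant mouse were close, and the other 2 mutant mice stood clear of every Wt mouse. The log2 fold change was 0.32 with a 95% interval of 0.047 to 0.60 (limma, adjusted p = 0.15). No gene on the opposite strand shares exonic bases with Sqle. Lss (ENSMUSG00000033105, chr10:76531588-76557138, plus strand), the lanosterol synthase gene, was at 44.3, 37.5 and 38.5 in Wt mice 1 to 3 and 46.0, 39.8 and 40.8 in mutant mice 1 to 3. Within each genotype mouse 1 was the highest for Lss, and the genotypes overlapped (log2 fold change 0.074, 95% interval -0.17 to 0.32).

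The late enzymes differed from each other. Cyp51 (ENSMUSG00000001467, chr5:4081145-4104746, minus strand), the lanosterol demethylase gene, had nearly equal values in the Wt mice, 28.5, 28.4 and 28.7, and values of 37.8, 39.3 and 31.7 in mutant mice 1 to 3. The mutant mice were all higher, with means of 28.5 ± 0.131 and 36.3 ± 4.05 (SD, n = 3) and a log2 fold change of 0.33 ± 0.10 (SE, limma, adjusted p = 0.105). Cyp51 shares 166 exonic bases with Akap9 on the opposite strand, a gene with 2.05 times the mean value of Cyp51. Akap9 was at 59.5, 65.6 and 66.5 in Wt mice 1 to 3 and 68.2, 68.0 and 71.3 in mutant mice 1 to 3, and its part in Cyp51 was not tested. Dhcr7 (ENSMUSG00000058454, chr7:143823145-143848410, plus strand) encodes the reductase that makes cholesterol from its immediate precursor. It was at 24.7, 23.4 and 24.2 in Wt mice 1 to 3 and 25.9, 24.8 and 24.1 in mutant mice 1 to 3. These overlapped, and the 95% interval of the log2 fold change, -0.15 to 0.24, was the narrowest of the 8 genes.

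Values were also divided by the length of all annotated exons of a gene, joined over its transcripts. That length can exceed the length of the transcript present (it is 10787 bases for Lss), so the order between genes is rough. The counts of Fdft1 and Idi1 are uncertain besides, as given above. On this scale Hmgcs1 had the highest value of the 7 enzymes, with a mean over the 6 mice of 47.4 normalized CPM per kb. Fdft1 and Cyp51 followed at 9.86 and 7.34, then Sqle, Dhcr7 and Lss at 4.25, 4.21 and 3.82, and Idi1 at 0.849. Srebf2 stood at 15.3 and Srebf1 at 52.5 on the same scale. The order of Sqle, Dhcr7 and Lss was not the same in every mouse: Dhcr7 was above Sqle in the Wt mice and below it in the mutant mice.

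Most of the 7 enzyme genes were highest in the mice numbered 1, with Cyp51 and Idi1 as exceptions. Mutant mouse 1 was the highest of the 3 mutant mice for 6 of the 7 and Wt mouse 1 the highest of the 3 Wt mice for 5 of the 7. Mutant mouse 1 was the highest of all 6 for 5 genes, whereas Cyp51 was highest in mutant mouse 2 and Idi1 in Wt mouse 3. The libraries of these mice are also those with almost no B cell transcripts (mutant mouse 1) and with epithelial transcripts (Wt mouse 1). Srebf2 ran the other way, with mouse 1 the lowest in each genotype. Ratios to Srebf2 carry its lower level in the mutant mice, which adds the same amount to the log2 difference of each enzyme, so they are not a separate result on the enzymes. Cyp51 over Srebf2 was 0.267, 0.195 and 0.197 in Wt mice 1 to 3 and 0.534, 0.436 and 0.313 in mutant mice 1 to 3, and Fdft1 over Srebf2 was 0.355, 0.242 and 0.233 against 0.782, 0.517 and 0.404. These ratios did not overlap between the genotypes, nor did those of Sqle and Dhcr7 (exact two-sided permutation test, p = 0.1 for each, the smallest that 3 mice against 3 allow, and 0.180 after Benjamini-Hochberg adjustment over the 9 ratios computed), whereas those of Hmgcs1, Idi1 and Lss did (p = 0.2, 0.3 and 0.2 by the same exact test, 0.257, 0.338 and 0.257 adjusted).

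Promoters were read for the members with an entry among the RefSeq promoters (build GRCm38.p6, 250 bases before to 50 after the start), which were Srebf2, Hmgcs1, Idi1, Lss, Cyp51 and Dhcr7. Fdft1 and Sqle were not matched. The letters searched on both strands were the sterol regulatory element TCACNCCAC, the E-box CACGTG, the NF-Y box CCAAT and the Sp1 box GGGCGG, which do not contain one another. Of all 32851 promoters, 1.24% held the first, 7.15% the second, 37.4% the third and 35.7% the last. The 6 matched members had 8 promoters in the table, 3 of them for Dhcr7. Of these 8 promoters, 1 held the sterol element (Hmgcs1, beginning 137 bases before the start), 1 the E-box (1 of the 3 of Dhcr7), 6 the NF-Y box and 7 the Sp1 box. The promoters of Hmgcs1, of Srebf2 and of Cyp51 are printed because Hmgcs1 is the matched member with the sterol element, and Srebf2 and Cyp51 are those whose genotypes did not overlap, in opposite directions. The capitals mark the letters found, as they read on the strand of the gene. A match is a description of the sequence and not a binding site. Only exact letters were searched, so a stretch that differs from them by 1 base was neither counted nor marked.
Hmgcs1, chr13:119690101-119690400, plus strand: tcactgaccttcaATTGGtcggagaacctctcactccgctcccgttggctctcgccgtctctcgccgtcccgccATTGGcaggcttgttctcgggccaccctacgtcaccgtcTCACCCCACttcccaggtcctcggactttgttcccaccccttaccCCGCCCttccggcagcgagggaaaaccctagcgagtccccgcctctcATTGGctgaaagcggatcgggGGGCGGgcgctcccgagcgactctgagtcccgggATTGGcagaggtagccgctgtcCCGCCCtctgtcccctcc
Srebf2, chr15:82147019-82147318, plus strand: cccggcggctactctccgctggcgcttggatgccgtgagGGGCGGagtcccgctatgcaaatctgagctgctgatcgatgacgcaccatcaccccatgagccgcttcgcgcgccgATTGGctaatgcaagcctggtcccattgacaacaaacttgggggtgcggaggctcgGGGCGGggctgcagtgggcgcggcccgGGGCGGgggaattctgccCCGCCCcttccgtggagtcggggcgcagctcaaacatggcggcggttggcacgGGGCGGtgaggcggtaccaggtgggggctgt
Cyp51, chr5:4104648-4104947, minus strand: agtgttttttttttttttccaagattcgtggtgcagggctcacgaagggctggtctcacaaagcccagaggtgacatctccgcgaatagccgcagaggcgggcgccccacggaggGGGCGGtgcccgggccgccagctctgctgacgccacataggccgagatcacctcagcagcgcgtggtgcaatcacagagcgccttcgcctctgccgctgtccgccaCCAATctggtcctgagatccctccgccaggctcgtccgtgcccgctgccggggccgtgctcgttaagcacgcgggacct

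Among 12 other enzymes of the pathway, limma called 0, where it called 8.11% of all genes. An unadjusted p under 0.05 was found for 3 of them (Msmo1, Hsd17b7 and Sc5d), a share near the 24.2% of all genes. EdgeR, which called 6.92% of all genes, also called 0 of the 12, and DESeq2, which called 12.6%, called 1, Sc5d. Their median log2 fold change was 0.081, beside 0.19 for the 7 member enzymes and -0.049 for all genes. After the correction for GC content the order of both lists turned, with medians of 0.27 and 0.11, and leaving out single mice gave 0.036 (without Wt mouse 2) to 0.16 (without Wt mouse 1) for the 12 and 0.035 (without mutant mouse 1) to 0.35 (without mutant mouse 3) for the 7. The mutant mice lay above all Wt mice for 4 of the 12, Pmvk, Msmo1, Hsd17b7 and Sc5d, and below them for 0, where 14.9% and 15.7% of all genes lay so. Sc5d, the lathosterol oxidase gene, had the largest log2 fold change of the 12, 0.53 ± 0.19 (SE, limma, adjusted p = 0.149), with 178, 143 and 127 in Wt mice 1 to 3 and 270.1, 194 and 185 in mutant mice 1 to 3. Without both mice numbered 1, Sc5d and Msmo1 passed the FDR, as did 13.5% of all genes.

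Acat2, the cytosolic thiolase that opens the pathway, was at 45.3, 31.4 and 32.6 in Wt mice 1 to 3 and 44.2, 33.3 and 31.2 in mutant mice 1 to 3, with a log2 fold change near 0 (95% interval -0.46 to 0.45) whose sign depended on the scaling. Of the 50-base windows of its exons, 39.1% also occur in other genes, mostly Acat3.

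**Figure D2:**
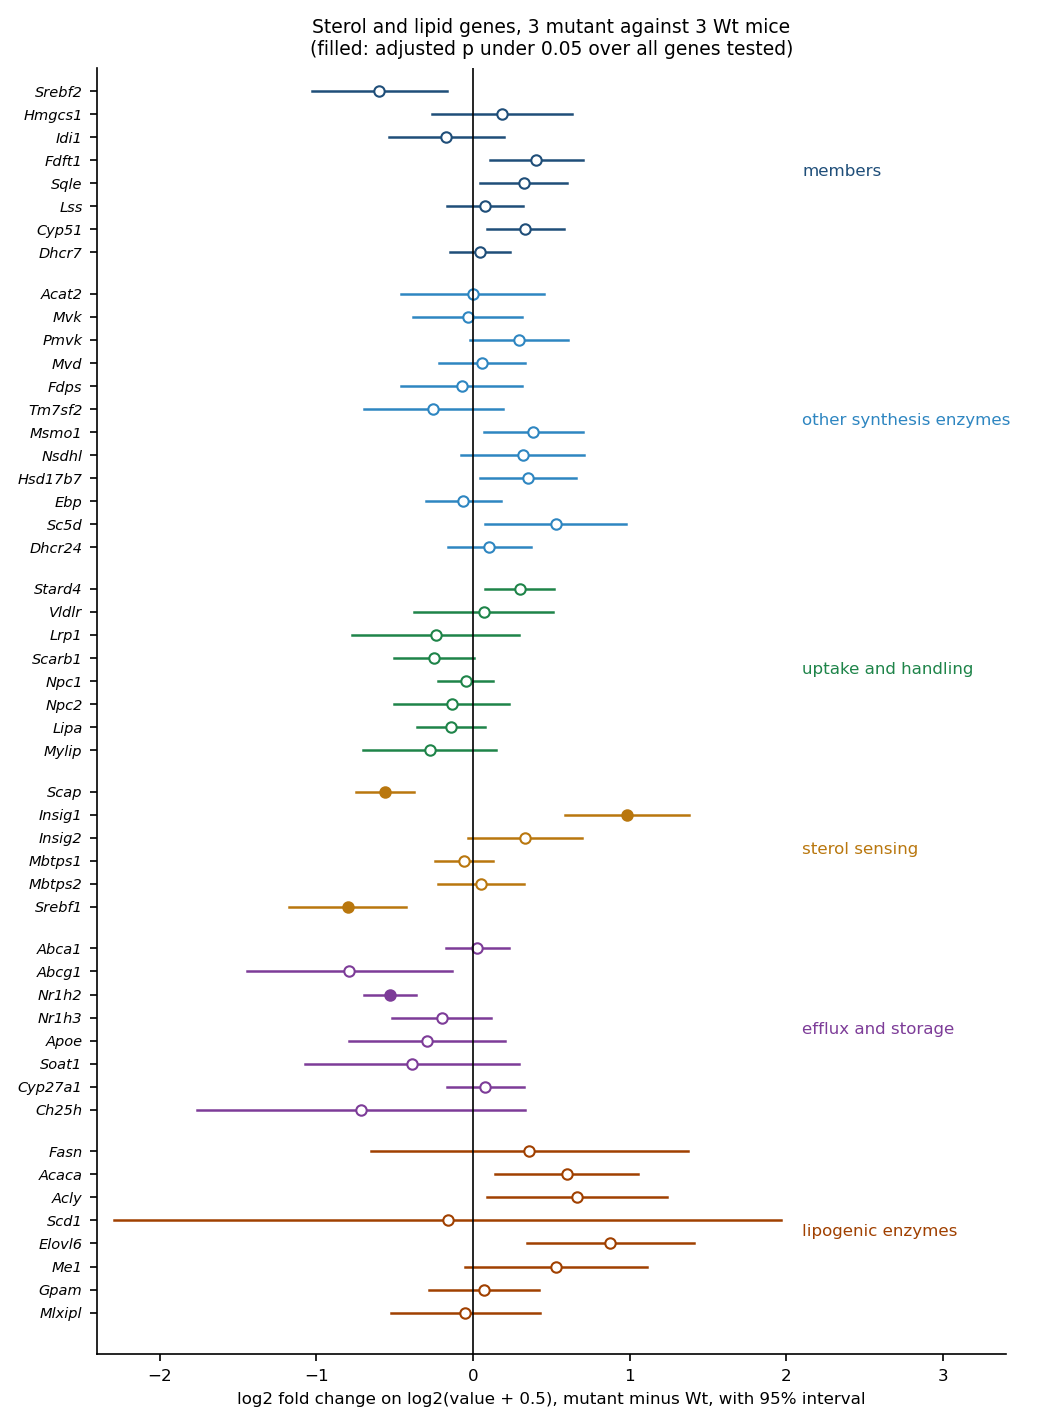
Log2 fold change, mutant minus Wt, on the log2(value + 0.5) scale (points) with its 95% interval (lines) for the genes tested of 6 lists, coloured by list. Filled points passed the FDR of 0.05 over all genes tested, which were Scap, Insig1, Srebf1 and Nr1h2, and no synthesis enzyme plotted is among them.

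Among 8 uptake and handling genes, limma, edgeR and DESeq2 each called 0, where they called 8.11%, 6.92% and 12.6% of all genes. Only 1, Stard4, had an unadjusted p under 0.05, where 24.2% of all genes had such a p. Stard4, a carrier of cholesterol within the cell and a known SREBP2 target, was at 15.5, 17.2 and 17.4 in Wt mice 1 to 3 and 20.7, 21.2 and 19.98 in mutant mice 1 to 3. The genotypes did not overlap, and the log2 fold change of 0.30 (95% interval 0.076 to 0.52) did not pass the FDR (limma, adjusted p = 0.110). The other 7, Vldlr, Lrp1, Scarb1, Npc1, Npc2, Lipa and Mylip, overlapped between the genotypes, with log2 fold changes of -0.28 (Mylip) to 0.067 (Vldlr). The median of the 8 was -0.14, and -0.064 without mutant mouse 3.

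Of the 5 genes that control SREBP processing, Scap, Insig1, Insig2, Mbtps1 and Mbtps2, limma called 2, Insig1 higher and Scap lower, where 8.11% of all genes were called. Insig1 (ENSMUSG00000045294, chr5:28071363-28078662, plus strand) encodes the protein that retains SCAP and is itself induced by SREBP. It was at 169, 135 and 138 in Wt mice 1 to 3 and 358, 276 and 246 in mutant mice 1 to 3. The lowest mutant mouse was well above the highest Wt mouse, and Insig1 rose by 0.98 ± 0.17 on the log2 scale (SE, limma, adjusted p = 0.0182), the largest change among the genes tested of these lists. Its call was lost without Wt mouse 2, Wt mouse 3 or mutant mouse 2 (limma, adjusted p = 0.0879, 0.0777 and 0.0704). Insig2, a relative with the same role, was at 54.5, 44.9 and 39.8 in Wt mice 1 to 3 and 67.5, 56.2 and 51.3 in mutant mice 1 to 3, and the genotypes overlapped.

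Scap (ENSMUSG00000032485, chr9:110333288-110384950, plus strand) lay the other way. Its values were 63.4, 70.6 and 71.4 in Wt mice 1 to 3 and 46.1, 46.9 and 45.4 in mutant mice 1 to 3, the latter almost equal to each other. Scap fell, with a log2 fold change of -0.56 ± 0.077 (SE, limma, adjusted p = 0.00900), and only leaving out Wt mouse 2 among the 6 single mice ended the call (limma, adjusted p = 0.0546). The protease genes Mbtps1 and Mbtps2 overlapped between the genotypes, with log2 fold changes of -0.056 and 0.049.

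Srebf1 (ENSMUSG00000020538, chr11:60199089-60222581, minus strand) encodes the SREBP1 proteins, of which SREBP1c drives fatty acid synthesis genes in liver. The values were 448, 343 and 339 in Wt mice 1 to 3 and 251, 196 and 199 in mutant mice 1 to 3. Each mutant mouse was below each Wt mouse, and Srebf1 fell, with means of 376 ± 61.7 and 216 ± 30.9 (SD, n = 3) and a log2 fold change of -0.80 ± 0.16 (SE, limma, adjusted p = 0.0304). The call was lost without Wt mouse 1, 2 or 3 (limma, adjusted p = 0.0614, 0.0869 and 0.0710) and without mutant mouse 2 or 3 (0.119 and 0.0932). It was also lost after the correction for GC content, which took the log2 fold change to -0.57 (limma, adjusted p = 0.0863).

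**Figure D3:**
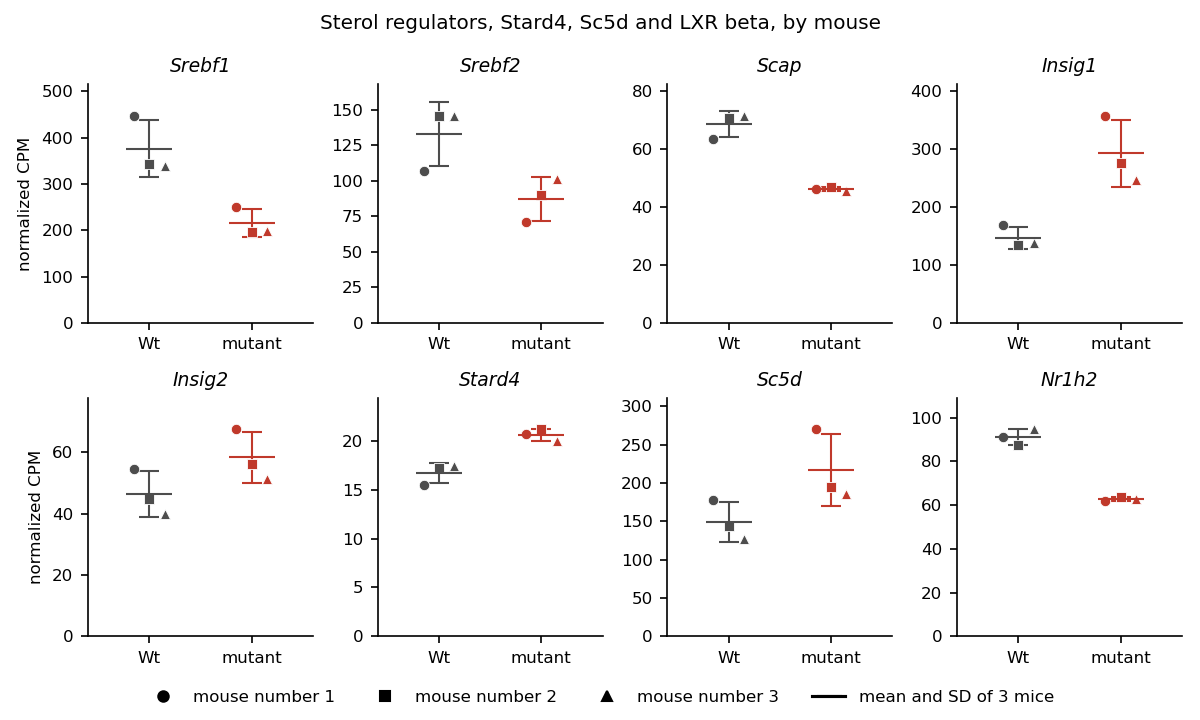
Normalized CPM of Srebf1, Srebf2, Scap, Insig1, Insig2, Stard4, Sc5d and Nr1h2 in each mouse (symbols for mouse numbers 1, 2 and 3, grey for Wt and red for mutant, bars for the mean and SD of 3 mice, each vertical axis starting at 0). Srebf1, Srebf2, Scap and Nr1h2 are lower in every mutant mouse, Insig1, Stard4 and Sc5d higher in every mutant mouse, and Insig2 overlaps.

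The difference of Srebf1 and that of Srebf2 could not be separated. Srebf1 over Srebf2 was 4.20, 2.35 and 2.33 in Wt mice 1 to 3 and 3.55, 2.18 and 1.97 in mutant mice 1 to 3. The ratios overlapped, with mouse 1 the highest in both genotypes, and the log2 ratio differed by -0.20 between the genotypes (exact two-sided permutation test, p = 0.5, and 0.5 adjusted, where the smallest possible unadjusted p is 0.1). Without Wt mouse 1 the difference had the opposite sign, 0.081. Srebf1 passed the FDR and Srebf2 did not, but no difference between their changes was detectable with 3 mice of each genotype. Within each genotype mouse 1 was the highest for Srebf1 and the lowest for Srebf2.

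Among 8 lipogenic genes, known as SREBP1 targets or parts of fatty acid synthesis, limma called 0 in either direction and so did edgeR. Of all genes, limma called 8.11% and edgeR 6.92%. Acaca, Acly and Elovl6, 3 of the 8, had an unadjusted p under 0.05, where 24.2% of all genes had such a p. DESeq2 called the same 3 higher, where it called 12.6% of all genes in either direction. In every mutant mouse these 3 were above all Wt mice, which held for 14.9% of all genes tested. Elovl6, a fatty acid elongase gene, had the largest log2 fold change, 0.88 ± 0.22 (SE, limma, adjusted p = 0.0647). It was at 127, 93.3 and 97.2 in Wt mice 1 to 3 and 262, 154 and 179 in mutant mice 1 to 3. The median of the 8 was 0.44, and 0.22 without mutant mouse 1. The genotypes overlapped for the other 5, Fasn, Scd1, Me1, Gpam and Mlxipl. Without both mice numbered 1, 4 of the 8 passed the FDR, all higher, in the fit that called 13.5% of all genes.

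Of the 8 efflux and storage genes, limma called 1, where it called 8.11% of all genes. The gene called was Nr1h2, which encodes the oxysterol receptor LXR beta. Nr1h2 was at 91.0, 87.3 and 94.8 in Wt mice 1 to 3 and 62.0, 63.6 and 62.7 in mutant mice 1 to 3. Nr1h2 fell, with a log2 fold change of -0.53 ± 0.069 (SE, limma, adjusted p = 0.00733), and it kept its call without any single mouse, but lost it after the correction for GC content, at -0.27 (limma, adjusted p = 0.0848). Abcg1, a sterol exporter and LXR target, was lower in every mutant mouse, with means of 81.6 ± 17.7 in Wt and 48.0 ± 14.7 in mutant mice (SD, n = 3) and a log2 fold change of -0.79 (limma, adjusted p = 0.140), while Abca1, another exporter and LXR target, had a log2 fold change of 0.028. All mutant mice lay below all Wt mice for 3 of the 8, Nr1h2, Abcg1 and Apoe, and above them for 0. Of all genes tested, 15.7% and 14.9% lay so. These 3 genes are in the highest GC tertile, where all mutant mice lay below all Wt mice for 1659 of 5620 genes. Apoe was at 2920, 2919 and 3165 in Wt mice 1 to 3 and 2679, 2579 and 2121 in mutant mice 1 to 3 (limma, adjusted p = 0.419). The log2 fold change of Apoe was -0.29, and -0.036 after the correction for GC content. The median of the 8 was -0.34, and -0.16 after the correction for GC content.

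GC content moved with the genotype difference over all genes, and the genes of the sterol pathway differ widely in it. The median log2 fold change was 0.030 in the lowest GC tertile of genes, -0.020 in the middle tertile and -0.18 in the highest tertile, where 366 genes were called lower and 322 higher, against 22 lower and 253 higher in the lowest tertile. Srebf2, Srebf1, Scap and Nr1h2, with 57.1, 59.4, 55.3 and 60.9% GC, are in the highest tertile. Of the enzymes among the 8 genes, Idi1, Hmgcs1 and Cyp51 are in the lowest tertile, and Sqle, Lss, Fdft1 and Dhcr7 in the middle one. After a correction within 20 bins of GC content, chosen after the data were seen, the log2 fold change was -0.42 for Srebf2, 0.42 for Fdft1, 0.29 for Sqle and 0.28 for Cyp51, and limma called 0 of the 8 genes, where it called 5.96% of all genes. Insig1 and Scap kept their calls (limma, adjusted p = 0.0199 and 0.0191).

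**Figure D4:**
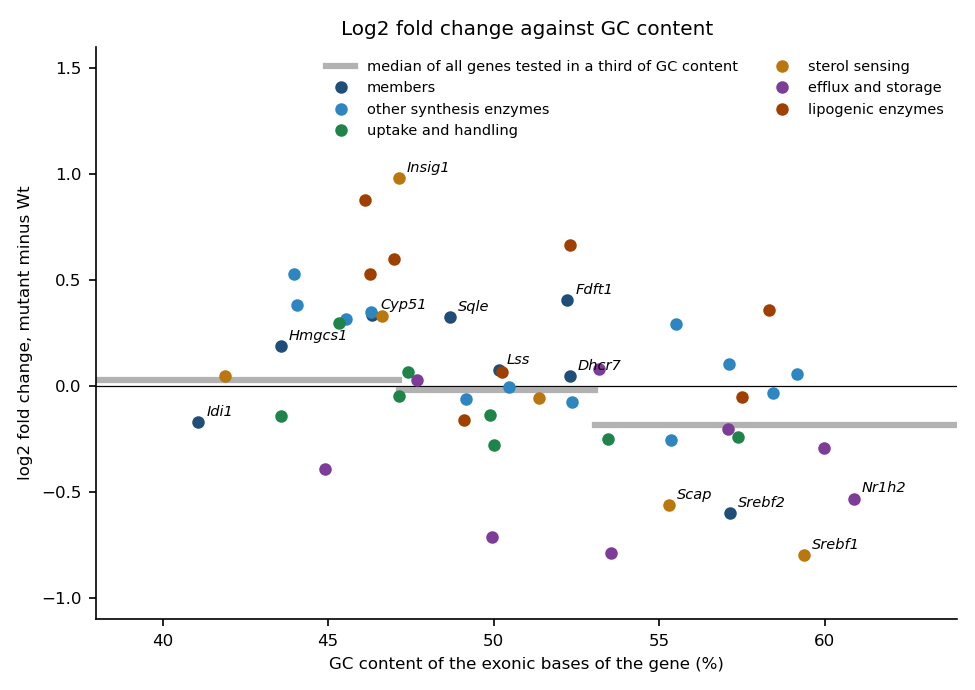
Log2 fold change, mutant minus Wt, against the GC content of each gene (percent), with points coloured by list and grey lines at the median of all genes tested in each tertile of GC content. GC content is the share of the bases of all annotated transcripts of a gene, added up, and the axis names it as that of the exonic bases. Srebf2, Srebf1, Scap and Nr1h2 lie in the highest tertile and below its median of -0.18, and Insig1 at 47.1% GC has the highest point.

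The genes most like the mean of the 8 members were named by the correlation, over the 6 mice, with the mean of the members' centred log2 values, among 10076 genes tested with a mean value of at least 10. They were Cd209f, Clec10a, 1810055G02Rik, Psmd5 and Camk1, with Pearson's r of 0.996, 0.994, 0.993, 0.993 and 0.993. The mean includes Srebf2, which ran the other way from most of the enzymes, so a gene like the mean need not be like each member. In mutant mouse 1 the mean was 0.14 over the 8 members and 0.24 over the 7 enzymes. Cd209f, a C-type lectin gene of macrophages, was at 44.0, 39.2 and 38.3 in Wt mice 1 to 3 and 55.1, 46.4 and 37.9 in mutant mice 1 to 3. The 6 points share their libraries and their scaling, and these r were the highest of many, so they are a description. The 6 macrophage markers summed to 646 to 699 in Wt and 631 to 798 in mutant mice. Among the listed genes of sterol metabolism, Nsdhl, a sterol dehydrogenase gene, was the most alike (r = 0.94, rank 185 of the 10076 genes). Insig1 had an r of 0.76 (rank 1679). For comparison, Thra and Adipoq had an r of 0.85 and 0.71.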

How the data were processed

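Total RNA of inguinal fat from 3 mutant and 3 Wt mice was sequenced, 1 library per mouse. The authors deposited a normalized signal per gene, CPM divided by a factor for each mouse. The submitters' processing notes name Bowtie2 2.1.0, RSEM 1.2.15, edgeR and mm10, and the use of strand and the annotation are not given in the sources used here. Every value was a whole number of reads times a fixed step (100% of values, within 0.1 read), so reads were recovered. Groups came from the labels. The genotypes were compared with limma 3.58.1 (R 4.3.3) on log2(value + 0.5), with genotype as the only term and Benjamini-Hochberg adjustment over the 16868 genes kept by filterByExpr of edgeR 4.0.16. Fold changes of low genes are understated on this scale. Single ratios were tested by exact permutation (SciPy 1.17.1). Coordinates, GC content and overlaps are from GENCODE M21 on GRCm38, in which 55480 identifiers were found and 93 were not. The alternatives were other scalings, filters and pseudocounts (0.1 and 1), edgeR, DESeq2 1.42.0, a replicate block and leaving out mice. The scripts were tested on simulated data.

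The named genes are the 8 members, Srebf1, Thra, Adipoq, 4 listed sterol genes (Insig1, Scap, Stard4 and Acat2), every listed gene past the FDR and the 5 genes most like the mean of the members. Other genes of the lists that are named with values were chosen after their values were seen, and some genes of the lists are not reported here. The members, the lists and the alternatives were chosen with earlier results of these data known. The precision is limited by 3 mice per genotype, and 3 reads correspond to a value of 0.126 to 0.157, for counting error only.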

Additional observations from a re-analysis of the deposited data

How the results depend on the processing

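Leaving out each mouse in turn gave 554 to 1005 calls over all genes, 0 among the 8 members, the other 12 synthesis enzymes and the lipogenic genes, 0 among the uptake genes, 0 to 3 among the sterol sensing genes, 1 among the efflux genes, and a difference of the Srebf1 to Srebf2 log2 ratio of -0.46 to 0.081, reversed in sign without Wt mouse 1. Each of these fits has fewer mice; the cause was not otherwise tested.

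Over all genes, DESeq2's Wald test called 2118 (12.6%) and scaling by library size only 1284 of the 16868 tested. A filter of at least 10 reads in every mouse gave 598 calls. Of the members, 1 was called with scaling by library size only (Fdft1) and 3 by DESeq2, which also called 1 other synthesis enzyme and 3 lipogenic genes, and library size scaling called 1 lipogenic gene, Elovl6.

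The mouse number entered as a replicate block called 4063 of the 16868 genes tested, where the fit without it called 1368. It called 3 members (Srebf2, Fdft1 and Cyp51, with adjusted p of 0.00656, 0.0225 and 0.0492 by limma). The block also called 5 other synthesis enzymes, 1 uptake gene (Mylip), 4 efflux genes and 4 lipogenic genes. The labels name no pairing, and same-numbered mice are different animals. Their deviations correlated at 0.69, 0.057 and 0.56, with a mean of 0.434, against a mean of -0.195 for mice of different numbers. Not every mouse correlated best with its own number. Whether equal numbers share a batch or handling is not given in the labels and was not tested. Under the block the Srebf1 to Srebf2 difference stayed at -0.20 (exact test over 3 pairs, p = 0.25, the smallest possible).

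3 alternatives were chosen after the data were seen. The GC correction called 0 efflux genes, where it called 5.96% of all genes. The block with the GC correction called 3160 of the 16868 genes tested. It called 2 members (Srebf2 and Fdft1), 2 other synthesis enzymes, 1 uptake gene (Mylip), 4 efflux genes and 5 lipogenic genes. Without both mice numbered 1, 2281 genes (13.5%) were called, with 1 member (Srebf2), 2 other synthesis enzymes, 2 efflux genes and 4 lipogenic genes among them.

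Single genes near 0 changed sign. Leaving out single mice gave -0.15 to 0.16 for Acat2 and -0.26 to 0.086 for Adipoq on the log2 scale. Acat2 was at 0.014 with DESeq2's size factors, 0.0022 with library size, 0.026 with TMM, 0.019 by edgeR and 0.0071 by DESeq2, at 0.16, 0.048 and 0.096 without Wt mouse 1, mutant mouse 2 and mutant mouse 3, and at 0.012 without both mice numbered 1. Adipoq was at 0.086 without Wt mouse 1 and 0.080 without mutant mouse 3. For single genes, direction and side of the threshold were kept in 366 comparisons with an alternative, the call was lost in 11 and gained in 11.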
